A study of Mus musculus with 2 samples.

Results

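The renin-angiotensin system was examined through 9 genes, chosen by symbol from what is known of the system, out of 43346 mouse genes measured in embryonic kidney: Ren1, Agt, Ace, Agtr1a, Agtr1b, Agtr2, Mas1, Enpep and Lnpep. All 9 symbols matched 1 gene identifier each in the GENCODE annotation. Total RNA came from kidneys of healthy B6NCrl mouse embryos, pooled across both sexes, at embryonic day 15.5, with no treatment and no genetic change named in the labels. The only group, embryonic kidney, had 2 biological replicate libraries: replicate 1 from 78 embryos, with a total expected count of 36244861, and replicate 2 from 62 embryos, with 39415002. Each library was made from 10 ng of RNA, and the labels name 1 donor record for both, so the difference between them covers these pools and their libraries only. With 1 library per pool, differences of pool, dissection and library preparation cannot be told apart, and pool differences below include all of them. The design has no second condition, so the comparisons are between the levels of these genes in 1 tissue and between the 2 pools. Because whole kidneys were used, fewer cells of a type and less RNA per cell cannot be told apart in any value below.

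The system is a chain of cuts to 1 protein. Renin (Ren1), released by granular cells of the kidney arterioles, cuts angiotensinogen (Agt, made mainly by the liver in adults) to angiotensin I. Ace then removes a pair of residues from the end of that peptide, which leaves the vasoconstrictor angiotensin II. Type 1 receptors (Agtr1a and Agtr1b in rodents) carry most pressor and salt-retaining effects, the type 2 receptor Agtr2 is known for high expression in fetal mesenchyme, and Mas1 is the receptor linked to a shorter, vasodilating angiotensin peptide. The aminopeptidase Enpep removes the first residue of angiotensin II, and Lnpep binds and degrades shorter products. In the fetal kidney renin is made along the growing arteries before it becomes restricted to the glomerular entrance, and mice that lack renin, angiotensinogen, Ace or both type 1 receptors form abnormal renal papillae and thick arterial walls.

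The peptide at the centre of the chain, angiotensin I, is shown by its codons, because renin releases it and Ace shortens it. They lie in exon 2 of the Agt transcript Agt-201, codons 30 to 39, at chr8:124564450-124564479 on the minus strand of mm10, with the codons of angiotensin II in capitals and the pair that Ace removes in lower case.

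Agt, angiotensin I codons: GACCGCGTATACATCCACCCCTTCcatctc

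Ace carries its zinc-binding catalytic motif in duplicate, once in each of its similar domains, and renin carries a pair of catalytic aspartate motifs. These 4 stretches are shown because the results that follow describe some of the transcripts by the motifs they hold. Capitals mark the codons of each motif. In Ace-201 the motifs lie in exon 8 (chr11:105972901-105972933, plus strand) and exon 20 (chr11:105985085-105985117), and in Ren1-201 in exon 3 (chr1:133354853-133354882, plus strand) and exon 7 (chr1:133358984-133359013).

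Ace, first zinc motif: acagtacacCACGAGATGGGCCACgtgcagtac

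Ace, second zinc motif: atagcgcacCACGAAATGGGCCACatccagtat

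Ren1, first aspartate motif: gtcatctttGACACGGGTTCAgccaacctc

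Ren1, second aspartate motif: gtagtggtgGACACTGGTTCAtcctttatc

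Renin dominated the system in both libraries, while its substrate was scarce. Of the 9 genes, 7 reached 1 TPM (a length-adjusted share of all transcripts in a library, scaled to a fixed total) in both libraries, against 34.9% of all 43346 genes and 62.3% of 21461 nuclear protein-coding genes. Mas1 and Agtr1b were the 2 that stayed below 1 TPM in both. The ranking by mean TPM ran Ren1, Enpep, Agtr2, Agtr1a, Ace, Lnpep, Agt, Mas1 and Agtr1b, and was the same in each library alone.

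**Figure D1:**
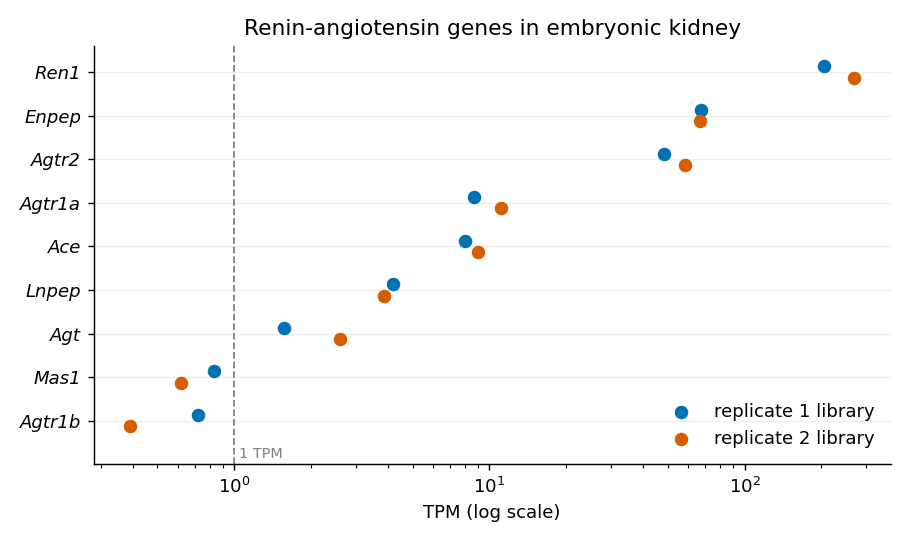
TPM on a log scale (x axis) of the 9 genes (y axis), with 1 point per library and a dashed line at 1 TPM. Ren1 sits at 206 and 269 TPM, Agt at 1.57 and 2.60, and only Mas1 and Agtr1b lie left of the line in both libraries.

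Ren1 (ENSMUSG00000070645.5; chromosome 1, 133350510 to 133360325, plus strand) stood at 206 TPM in replicate 1 and 269 TPM in replicate 2, from 7517 and 10602 counts. The mean was 237 ± 45.03 TPM (SD, n = 2), which placed it 565th among the protein-coding genes, inside the top 2.63%. It supplied 59.5% of the summed TPM of the 9 genes in replicate 1 and 63.8% in replicate 2. All of its signal was assigned to Ren1-201, the 9-exon transcript that encodes the full 402-residue precursor with both aspartate motifs, and the short form Ren1-202 was at 0 in both libraries.

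Agt (ENSMUSG00000031980.9; chromosome 8, 124556534 to 124569706, minus strand) was at 1.57 and 2.60 TPM, from 69 and 123 counts. Its mean of 2.09 ± 0.728 TPM (SD, n = 2) ranked 12484th. The Ren1 level exceeded that of Agt 131-fold in replicate 1 and 104-fold in replicate 2. The log2(TPM + 1) difference was 6.28 ± 0.07 (SD, n = 2), against a replicate limit of 0.92. That limit is the log2 TPM ratio, taken without its sign, that 95% of genes as abundant as the lower gene of the pair did not exceed between the libraries, and a pair was called apart where both libraries exceeded it in the same direction. Genes below 1 TPM took the limit of genes at 1 to 3 TPM.

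The enzymes that act on angiotensins differed among themselves, with Enpep far above Ace. Enpep (ENSMUSG00000028024.10; chromosome 3, 129269175 to 129332720, minus strand) was at 67.5 and 66.9 TPM, from 6463 and 6956 counts, the closest agreement between libraries of all 9 genes. Ace (ENSMUSG00000020681.10; chromosome 11, 105967945 to 105989964, plus strand) was at 8.03 and 8.99 TPM, from 915 and 1093 counts. Lnpep (ENSMUSG00000023845.6; chromosome 17, 17521410 to 17625050, minus strand) was at 4.19 and 3.87 TPM, from 521 and 518 counts.

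Enpep exceeded Ace by 2.84 ± 0.11 on the log2(TPM + 1) scale (SD, n = 2; limit 0.79), that is 8.40-fold and 7.44-fold in TPM. It exceeded Lnpep, the other aminopeptidase, by 3.76 ± 0.06 (limit 0.79). The proteins predicted from Enpep-201 and Lnpep-201 have 945 and 1025 residues, share 28.4% of aligned residues and carry 1 zinc motif each. The Lnpep level rests on the deposited gene model: the deposited transcript is 5181 bases long, while the same transcript in GENCODE M21 has 12052 bases, the only transcript of the 28 whose length differed between the annotations.

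Among the receptors, Agtr2 was the abundant form and the type 1 receptors followed at lower levels. Agtr2 (ENSMUSG00000068122.6; chromosome X, 21484544 to 21489164, plus strand) was at 48.4 and 58.3 TPM, from 3734 and 4848 counts. Agtr1a (ENSMUSG00000049115.10; chromosome 13, 30336441 to 30382867, plus strand) was at 8.68 and 11.1 TPM, from 431 and 592 counts. The Agtr2 level was 5.58-fold that of Agtr1a in replicate 1 and 5.26-fold in replicate 2, a log2(TPM + 1) difference of 2.32 ± 0.04 (SD, n = 2; limit 0.79).

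Agtr1b (ENSMUSG00000054988.9; chromosome 3, 20314473 to 20367177, minus strand) was at 0.72 and 0.39 TPM. Its 36 and 21 counts have exact 95% Poisson intervals of 25.2 to 49.8 and 13.0 to 32.1, a level close to the limit of the depth. Such an interval lies above 0 for any nonzero count and does not cover reads assigned to the wrong gene. Mas1 (ENSMUSG00000068037.6; chromosome 17, 12841079 to 12868143, minus strand) was at 0.83 and 0.62 TPM, from 33 and 19 counts, with intervals of 22.7 to 46.3 and 11.4 to 29.7. Agtr1a exceeded Agtr1b by 2.81 ± 0.44 on the log2(TPM + 1) scale (SD, n = 2; limit 0.92), and Agtr2 exceeded Mas1 by 4.97 ± 0.31 (limit 0.92).

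The type 1 receptor genes are close copies, and the start of their coding sequence is shown because reads of one could be counted for the other. The 120 bases lie in exon 3 of Agtr1a-201 (chr13:30380954-30381073, plus strand) and exon 2 of Agtr1b-201 (chr3:20316321-20316440, minus strand). Capitals mark the 8 positions at which they differ.

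Agtr1a: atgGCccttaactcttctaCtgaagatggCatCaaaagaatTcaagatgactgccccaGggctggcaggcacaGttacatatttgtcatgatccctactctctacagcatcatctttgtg

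Agtr1b: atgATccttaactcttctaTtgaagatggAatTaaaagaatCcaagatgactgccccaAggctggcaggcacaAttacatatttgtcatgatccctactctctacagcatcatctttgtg

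Over the whole coding region of 1077 bases, 99 positions differed (90.8% identity), the longest identical run was 66 bases, and the predicted proteins of 359 residues shared 93.9% of residues. Agtr2, with 363 residues, shared 32.4% of aligned residues with Agtr1a. The expected counts of 8 of the 9 genes were whole in both libraries to the 2 decimals deposited, Agtr1a and Agtr1b included; the treatment of reads that fit both copies is not stated, so their levels carry that uncertainty. The exception was Ace, with counts of 915 and 1092.99, a gap from whole no larger than the last decimal deposited. As a separate matter, 295 exon bases of Ace are also covered by the antisense gene Gm11651, which was listed at 0 and 0.03 TPM. No other gene of the annotation shared exon bases with the 9.

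Only 3 of the 8 neighbours in the ranking were apart by the replicate limit. Ren1 exceeded Enpep by 1.79 ± 0.28 on the log2(TPM + 1) scale (SD, n = 2; limit 0.27), Agtr2 exceeded Agtr1a as given above, and Ace exceeded Lnpep by 0.92 ± 0.17 (limit 0.79). The step from Ace to Lnpep was no longer apart with FPKM values or with TPM rescaled over nuclear protein-coding genes. Enpep and Agtr2 differed by 0.33 ± 0.19 (limit 0.27), with 0.20 in replicate 2, and so were not apart in both libraries. Agtr1a and Ace (0.19 ± 0.12, limit 0.79), Lnpep and Agt (0.72 ± 0.41, limit 0.92), Agt and Mas1 (0.82 ± 0.47, limit 0.92) and Mas1 and Agtr1b (0.16 ± 0.09, limit 0.92) also fell within the limit in at least 1 library.

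Most of the 9 genes had a single leading transcript. The deposited tables list 28 transcripts of the 9 genes, of which 15 had signal in both libraries and 11 were at 0 in both. In 7 genes the leading transcript held at least 90% of the gene's transcripts in both libraries, as in 46.1% of the 16835 nuclear protein-coding genes with signal in both. Agt and Lnpep had 1 deposited transcript each, which fixes their share at 100%. Of the 7 genes with more than 1 transcript, 5 passed, against 22.6% of 11724 such genes, and nothing particular to the 9 genes is read from so few. Agtr1b-201 held 100% of Agtr1b in both libraries, from 36 and 21 counts. Agtr1a-201 held 95.7% of Agtr1a in each library, and Agtr2-201 held 98.8% and 99.0% of Agtr2. Enpep-201, the 20-exon coding form, held 92.4% and 92.9%, with the rest in retained-intron and decay-class transcripts.

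Ace and Mas1 were the exceptions. Ace-201, the somatic form with 25 exons and both zinc motifs, held 87.7% of Ace transcripts in replicate 1 and 84.4% in replicate 2 (mean 86.03 ± 2.32%, SD, n = 2). Ace-203, a 20-exon model with an incomplete coding region that starts 3378 bases downstream, held 12.3% and 15.6%. Ace-202 starts 7263 bases downstream of the somatic start, has 14 exons and 1 zinc motif, and is the layout known for the male germ cell form of the enzyme. It was assigned 0 counts in both libraries, as was the non-coding Ace-204. Since these forms share their 3′ exons, the shares rest on the quantifier's division of reads.

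**Figure D2:**
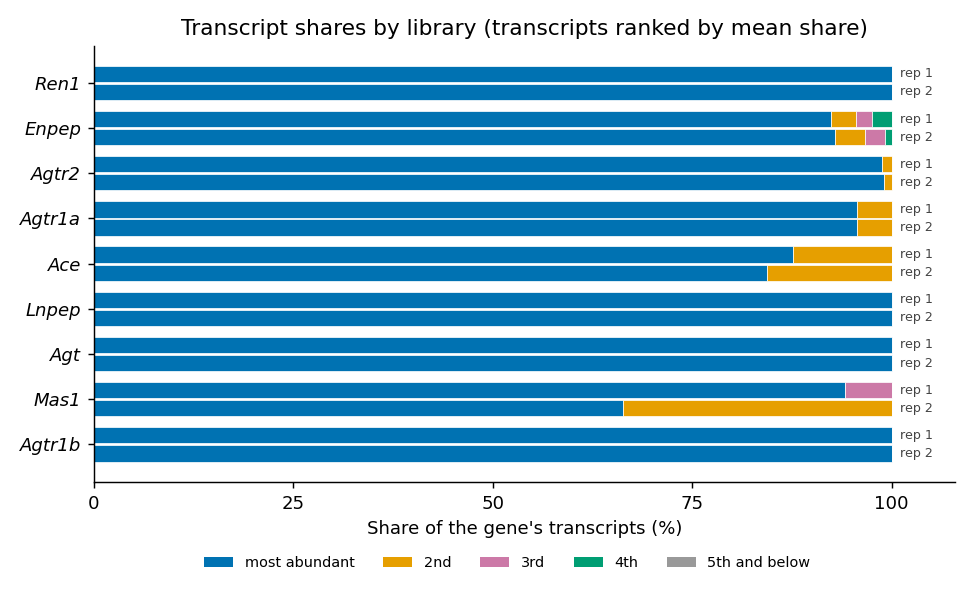
Share of each gene's transcripts in percent (x axis) for the 9 genes, with 1 bar per library, coloured by the rank of the transcript's mean share. Ace is split between its leading form (87.7% and 84.4%) and Ace-203, and the Mas1 split changes from 94.1% to 66.4% for its leading form.

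Mas1-209 was the leading Mas1 transcript in both libraries, but its share and the transcript next to it were unsettled at this depth. It held 94.1% in replicate 1 and 66.4% in replicate 2, and these shares came from 30.2 and 17.1 counts. Mas1-207 took 33.6% of the transcripts in replicate 2 from 1.9 counts over a model of 443 bases. Of the 9 Mas1 models, 6 were at 0 in both libraries, and Mas1-201 had 2.78 and 0 counts.

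The start regions of Ren1 and Ace are shown because Ace transcripts differ in their start and renin was the highest of the 9 genes. RefSeq windows on GRCm38.p6, the assembly of mm10, run from 250 bases before to 50 bases after a start site and were found for 8 of the 9 genes, with none for Agtr1a. Capitals mark 4 short motifs searched on both strands: TATAAA (the TATA box), AATAAATCA (most of an element described in the renin promoter), GGGCGG (the GC box) and TGAGGTCA (a form of the cyclic AMP response element). Among 32851 windows of the same length, TATAAA was present in 13.6%, AATAAATCA in 0.32%, GGGCGG in 35.7% and TGAGGTCA in 2.17%. Every GGGCGG in the Ace somatic window lies on the gene strand, and the pair farthest upstream overlap.

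Ren1, chr1:133350424-133350723, plus strand: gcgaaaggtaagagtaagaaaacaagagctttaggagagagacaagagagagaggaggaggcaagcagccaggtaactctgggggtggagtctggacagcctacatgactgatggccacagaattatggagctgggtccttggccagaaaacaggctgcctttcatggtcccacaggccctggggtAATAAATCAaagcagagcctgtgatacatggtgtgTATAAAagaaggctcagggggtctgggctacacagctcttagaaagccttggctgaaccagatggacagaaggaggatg

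Ace somatic start, chr11:105967698-105967997, plus strand: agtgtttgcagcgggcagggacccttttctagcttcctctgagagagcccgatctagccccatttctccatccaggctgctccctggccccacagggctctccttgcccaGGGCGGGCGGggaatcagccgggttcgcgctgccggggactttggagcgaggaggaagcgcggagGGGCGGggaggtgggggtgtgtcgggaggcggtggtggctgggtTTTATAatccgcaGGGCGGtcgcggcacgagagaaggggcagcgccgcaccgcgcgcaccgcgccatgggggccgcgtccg

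Ace germ cell start, chr11:105974939-105975238, plus strand: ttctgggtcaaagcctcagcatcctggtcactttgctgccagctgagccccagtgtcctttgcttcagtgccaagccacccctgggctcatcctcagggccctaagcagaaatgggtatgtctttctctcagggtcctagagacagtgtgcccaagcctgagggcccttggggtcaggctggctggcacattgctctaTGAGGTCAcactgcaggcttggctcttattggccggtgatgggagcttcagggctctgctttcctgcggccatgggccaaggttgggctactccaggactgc

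In the Ren1 window, TATAAA begins 29 bases and AATAAATCA 64 bases upstream of the RefSeq start, which lies 164 bases downstream of the start of Ren1-201 in GENCODE. The somatic Ace window had a GC content of 69.7%, with 4 GGGCGG matches and a TATAAA on the other strand 31 bases upstream. The germ cell window had a GC content of 59%, with TGAGGTCA beginning 52 bases upstream and no match to the other 3 motifs. TATAAA on the gene strand was also found in the Agt and Agtr1b windows, 30 and 31 bases upstream, and no searched motif was found in those of Agtr2 and Mas1. Markers of male germ cells were low, with 0 of 5 at 1 TPM in both libraries, against 62.3% of nuclear protein-coding genes. Their summed level was 0.41 and 0.88 TPM, with Tnp1 and Acrv1 at 0. Low values are what embryonic kidney would give whatever the level of Ace-202, so nothing about Ace-202 is read from them. A motif match is a description of the letters in the window only.

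The 2 pools differed in Ren1 by more than most genes of that abundance. Replicate 2 was 1.31-fold above replicate 1 in TPM, and the count ratio, scaled to library totals, was 1.30 with an exact Clopper-Pearson 95% interval of 1.26 to 1.34 that covers counting error between these libraries only. Of the 1658 genes with a mean of at least 100 TPM, 95% differed by less than 1.19-fold, and Ren1 was the only 1 of the 9 genes beyond the limit applied to it. Mas1 and Agtr1b, below 1 TPM, had no limit for their own abundance. They were set against the limit of genes at 1 to 3 TPM (0.92), to which Agtr1b came close (log2 ratio -0.885). Agtr2 was 1.20-fold higher in replicate 2, just inside its limit (log2 ratio 0.267 against 0.268), Agtr1a was 1.28-fold higher and Ace 1.12-fold higher. Lnpep was 1.08-fold lower in replicate 2, and Enpep had a ratio of 0.991 in TPM and 1.002 after rescaling over nuclear protein-coding genes, so it had no direction that every scaling kept.

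Agt, Agtr1b and Mas1 had too few counts for the rule on pool differences, which asked for a mean count of 100 and a TPM ratio of 1.5. Agt was 1.66-fold higher in replicate 2, with a count ratio of 1.64 (95% interval 1.21 to 2.23). Agtr1b was 1.85-fold lower, with a count ratio of 0.536 (0.298 to 0.944). Mas1 was 1.34-fold lower in TPM, with a count ratio of 0.529 (0.284 to 0.959). In replicate 2 its TPM included 0.21 for Mas1-207, from 1.9 counts over a model of 443 bases, while Mas1-209 went from 0.79 to 0.41 TPM. None (0) of the 6 genes with enough counts passed the rule, against 3.15% of 13507 genes. Their median ratio was 1.16, against 1.01 over all genes with enough counts. No test across genes was run, since 1 library per pool gives no replicate check of a pool.

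**Figure D3:**
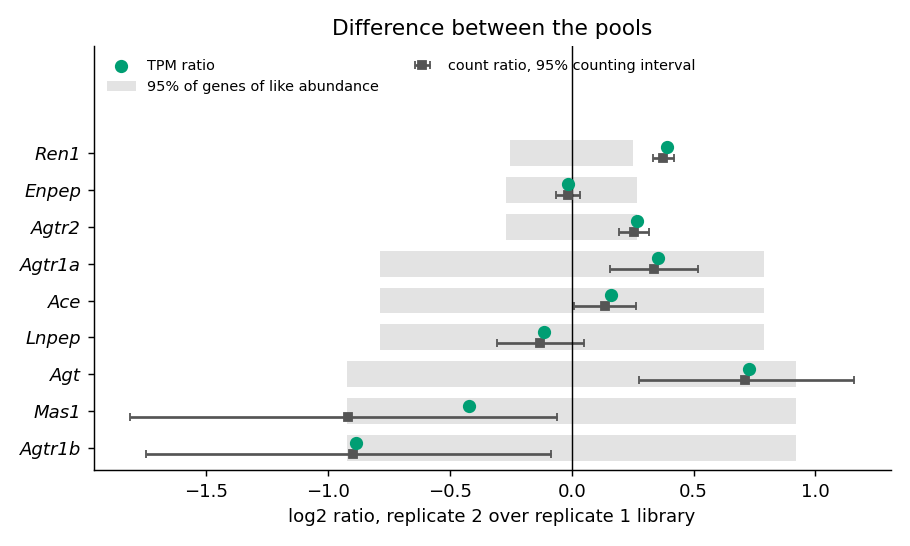
log2 ratio of replicate 2 over replicate 1 (x axis) for the 9 genes, as TPM ratios (circles) and as count ratios scaled to library totals (squares, with exact 95% counting intervals). Grey bars span the limit that 95% of genes of like abundance keep to, and Ren1, at 0.39 against 0.25, lies outside its bar.

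Contractile genes of the mural and renin cell list, and markers of adrenal gland and liver, also stood higher in replicate 2. Over all genes with enough counts, 3.15% passed the pool rule. In the mural and renin cell list, all 10 genes reached 1 TPM in both libraries, and the summed level was 413 TPM in replicate 1 and 786 TPM in replicate 2. Of these, 5 passed the pool rule: Acta2 and Tagln of smooth muscle (193 and 410 TPM, and 37.9 and 68.3 TPM), the contractile genes Myh11 (5.54 and 24.1 TPM) and Cnn1 (5.60 and 23.2 TPM), and Akr1b7, an aldo-keto reductase made by both renin cells and adrenal cortex, at 50.7 and 130 TPM. The pericyte genes Pdgfrb (41.5 and 46.2 TPM), Cspg4 (13.4 and 13.9) and Rgs5 (20.4 and 20.9) did not pass. Mcam (35.5 and 38.1 TPM) and Notch3 (9.53 and 11.7 TPM) of the same list did not pass either. Myh11, Cnn1, Pdgfrb, Cspg4, Rgs5, Mcam and Notch3 were picked with their values in view. The 7 adrenal cortex markers summed to 47.1 and 153 TPM, and all 7 passed. The cholesterol side-chain enzyme Cyp11a1 was at 12.9 and 37.8 TPM. The 5 adrenal medulla markers summed to 18.0 and 96.5 TPM, and 4 of the 4 with enough counts passed.

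The 6 liver markers, of the organ known as the main adult source of Agt, summed to 169 and 304 TPM. Of these, 4 of 6 were past the rule, against 3.15% of all genes with enough counts. The fetal plasma protein gene Afp was at 94.3 and 164 TPM, and albumin (Alb) at 24.7 and 52.4 TPM. No proximal tubule marker passed (0 of 7 with enough counts, summed level 165 and 187 TPM), nor any endothelial marker (0 of 7, 355 and 375 TPM). Of the stroma markers 1 of 7 passed (Tbx18, summed level of the list 1921 and 2294 TPM). No list other than mast and male germ cells had a marker at 0 in both libraries. The part of these cell types in the Ren1, Agt and other pool differences was not tested.

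**Figure D4:**
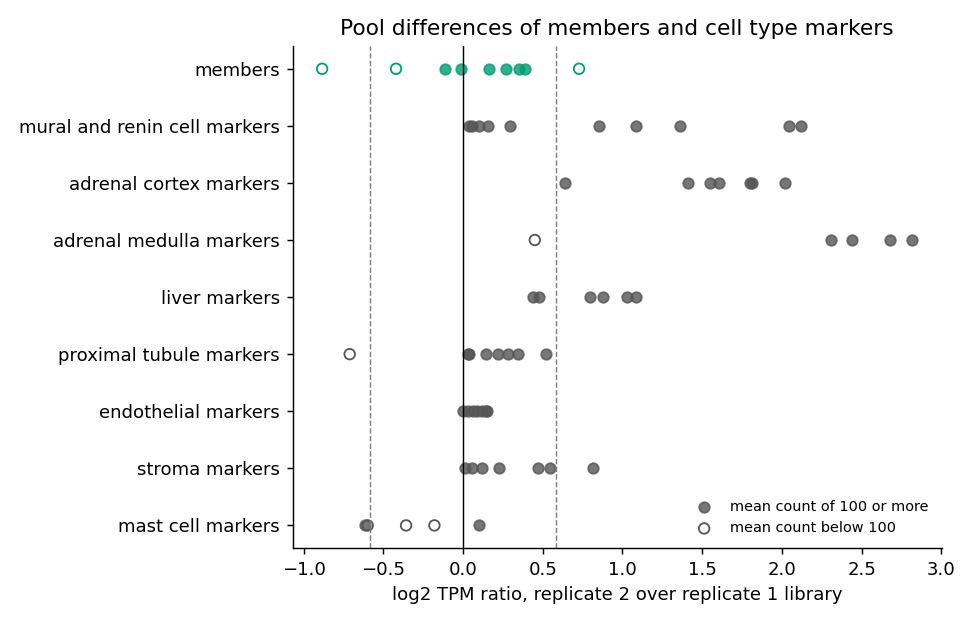
log2 TPM ratio of replicate 2 over replicate 1 (x axis) for the 9 genes (green) and for genes of 8 of the 9 marker lists (grey), with dashed lines at a ratio of 1.5 and open circles for genes with a mean count below 100. All 7 adrenal cortex genes lie beyond the right line, while all 7 endothelial genes lie between the lines.

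Some other enzymes that process angiotensins stood above Ace, neprilysin (Mme) among them. Of 17 further peptidases and partners, 13 reached 1 TPM in both libraries, against 62.3% of nuclear protein-coding genes. The list medians were 12.6 and 13.3 TPM. The lysosomal carboxypeptidase Ctsa led the list at 130 and 137 TPM, followed by Atp6ap2, the (pro)renin receptor and proton pump partner, at 97.6 and 89.0 TPM, and prolyl endopeptidase (Prep) at 80.0 and 81.6 TPM. Atp6ap2 lay below Ren1, at 0.475 and 0.330 of its level. Neprilysin, a membrane peptidase that also shortens angiotensin I, was chosen after its values were seen. It stood at 27.0 and 24.95 TPM, 3.36-fold and 2.78-fold the Ace level, and was apart from Ace by the replicate limit of 0.79.

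Genes of mast cell proteases and of 1 further receptor marked the low end. The chymases Cma2 and Mcpt4 and the receptor gene Mrgprd had 0 counts in both libraries, which allows up to 3 counts in each as a one-sided limit, where the exact Poisson interval used above would reach 3.69. A further chymase gene, Cma1, was at 2.14 and 1.67 TPM, from 51 and 43 counts. The mast cell list that holds it summed to 22.1 and 20.4 TPM, with Kit, which many other cell types make, at 12.6 and 13.5 TPM. Of the 11 genes of this enzyme list with enough counts, 1 passed the pool rule, against 3.15% of all genes with enough counts. It was the mast cell carboxypeptidase Cpa3, at 3.95 and 2.58 TPM.

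Of 16 genes known to control renin transcription and release, 12 reached 1 TPM in both libraries, a share near the 62.3% of all nuclear protein-coding genes. Of the 13 with enough counts, 0 passed the pool rule, against 3.15% of all genes with enough counts, and nothing is read from so few. The list was led by Gnas, the stimulatory G protein subunit of the cyclic AMP pathway, at 1263 and 1327 TPM. The protein kinase A subunit Prkaca stood at 131 TPM in both libraries. Hoxd10, a homeobox factor reported to act on the renin promoter, was at 29.98 and 27.2 TPM. Gja5, the gap junction protein of renin cells and arterial endothelium, was at 20.3 and 19.7 TPM. The beta-adrenergic receptor Adrb1, which drives renin release in adults, was low at 0.19 and 0.29 TPM. Hoxd10, Gja5 and Adrb1 were chosen after their values were seen.

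**Figure D5:**
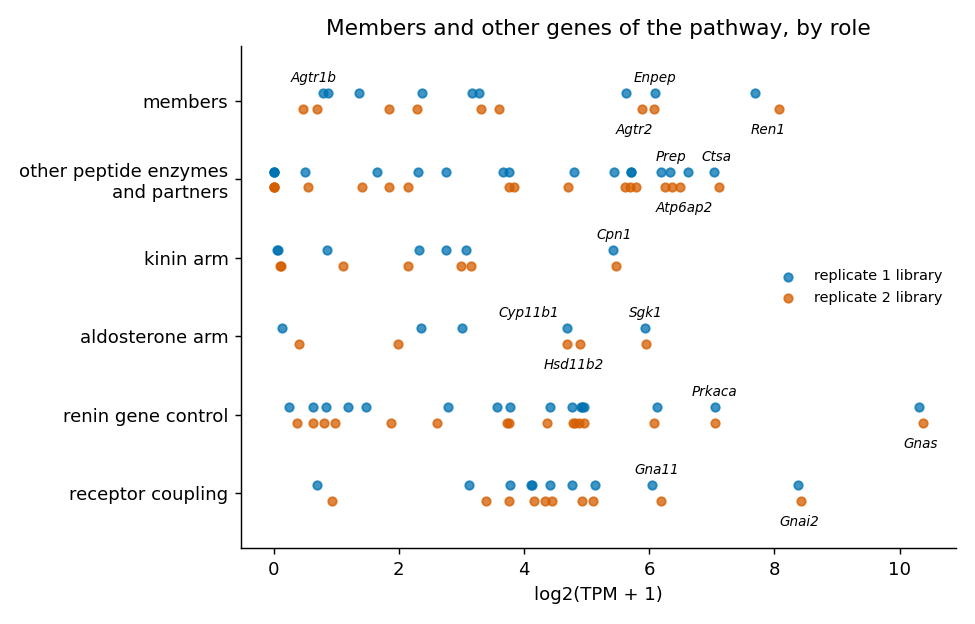
log2(TPM + 1) (x axis) of the 9 genes and of 5 lists of related genes by role (y axis), with 1 point per library and selected genes named. Gnas, at 1263 and 1327 TPM, is the highest point, and Ren1 is the highest of the 9 genes.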

How the data were processed

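Total RNA-seq libraries from 2 kidney pools of 1 group were used as deposited, with 1 gene table and 1 transcript table each. Reads were mapped to mm10 and quantified with GENCODE M4, per the text files deposited beside the tables. Which aligner, quantifier and strand setting were used is not given in the sources used here. Expected counts, as deposited, estimate the reads of each feature and are not scaled for depth. The deposited TPM values are scaled to a fixed sum over all features, spike-ins included. The deposited FPKM values served as an alternative. The deposited percent column gives each transcript's share of its gene.

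Symbols, coordinates, exons and transcript sequences came from GENCODE M21 on the same assembly, which matched 42462 genes (98.0%) by identifier. Promoter windows came from RefSeq on GRCm38.p6. No column of another sample was present (0).

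With 1 group, no p-value was computed. Replicate limits were taken within classes of mean TPM, cut at 1, 3, 10, 30 and 100, over genes at 1 TPM or more in both libraries. The pair rule used a pseudocount of 1. Genes below 1 TPM took the limit of the lowest bin, which leaves out any gene that fell below 1 TPM in a library. Besides the neighbours, 7 pairs were chosen after their values were seen. Counts were rounded for Poisson and Clopper-Pearson intervals. Intervals, and the limit of 3 counts for a count of 0, cover counting error only: without molecular identifiers, PCR reads do not each stand for a molecule. Identities came from global alignments.

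The 9 genes and all lists were chosen with earlier results of these data known. Named are the 9 genes, the 3 highest genes of each list and those at 0 in both libraries, Atp6ap2, Agtrap and Akr1b7, and transcripts with a mean share of at least 10%; other names were chosen after their values were seen. Some genes the rule names are not reported here. Some of the genes named, Myh11, Cnn1 and Tbx18 among them, passed the rule on pool differences. Since 2 libraries give 1 difference per gene, no shared pattern is read from them.

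Alternatives were FPKM, TPM rescaled over nuclear protein-coding genes, CPM with TMM factors (edgeR 4.0.16), DESeq2 1.42.0 size factors, other thresholds, pseudocounts and filters, and each library alone. Python 3.11.15 with pandas 2.3.3 and SciPy 1.17.1 was used. The rule on pool differences was tested on simulated data, which hold no information on the spread between pools, and no result here rests on that test.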

Additional observations from a re-analysis of the deposited data

How the results depend on the processing

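The count of genes at 1 TPM (7), the count with a leading transcript at 90% (7) and the count of 54 other pathway genes at 1 TPM (41) stayed within 1.5 times under every alternative run, with 8 genes at 0.5 TPM, 5 at 5 TPM and 46 pathway genes at 0.5 TPM. Among all nuclear protein-coding genes, 62.3% reached 1 TPM in both libraries. The ranking of the 9 genes was the same under all 6 alternatives run for it. The number of neighbours apart was 3, or 2 with FPKM or rescaled TPM, where the step from Ace to Lnpep was lost, and 4 to 5 with 1 library alone; without replicate 2, Enpep and Agtr2, and Lnpep and Agt, were also apart, and without replicate 1, Agt and Mas1 were. The median level of the 9 genes was 8.51 TPM, 5.72 as FPKM and 10.7 after rescaling over nuclear protein-coding genes, as those units set another total, and 8.03 to 8.99 with 1 library alone. The count of genes that passed the rule on pool differences was 0 in the 6 with enough counts and rose to 2 of 9, Agt and Agtr1b, with a mean count of 20, which admits more genes. It was 0 under the other 5 alternatives. Of 9 pool ratios, 8 kept their direction over 5 scalings, and Enpep turned from 0.991 to 1.002 after rescaling. The Mas1 ratio was 0.747 in TPM and 0.526 with CPM and TMM factors. No paired analysis was possible because there is only 1 group. Depth limited Agtr1b and Mas1, with 19 to 36 counts per library, and their transcripts.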

Other observations

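The kinin arm, which Ace also serves by breaking down bradykinin, was uneven. Of its 7 genes, 4 reached 1 TPM in both libraries, against 62.3% of nuclear protein-coding genes. The carboxypeptidase subunit Cpn1, which inactivates kinins, led at 41.8 and 43.4 TPM, while its partner subunit Cpn2 was at 0.04 and 0.07 TPM. The kininogen genes Kng2 and Kng1 stood at 7.46 and 6.98 TPM and at 4.01 and 7.87 TPM, are near copies of each other and had fractional counts, so their levels are uncertain. Kng1 passed the rule on pool differences, 1 of the 3 genes of the list with enough counts, against 3.15% of all genes with enough counts. The kinin receptors Bdkrb2 (0.80 and 1.15 TPM) and Bdkrb1 (0.05 and 0.09 TPM) were low; Bdkrb2, Bdkrb1 and Cpn2 were picked with their values in view.

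The aldosterone arm is the steroid branch that angiotensin II drives in the adult adrenal cortex. It had 4 of 5 genes at 1 TPM in both libraries, against 62.3% of nuclear protein-coding genes. Sgk1, the kinase induced by the hormone, was at 60.4 and 60.9 TPM, and Hsd11b2, the enzyme that protects its receptor from glucocorticoids, at 24.7 and 28.8 TPM. The 11-beta-hydroxylase Cyp11b1, also 1 of the adrenal cortex markers, was at 7.02 TPM in replicate 1 and 24.7 TPM in replicate 2. It was the only 1 of the 4 genes of the list with enough counts past the rule on pool differences, against 3.15% of all such genes. The aldosterone synthase gene Cyp11b2, chosen after its values were seen, was at 0.10 and 0.32 TPM, and both it and its near copy Cyp11b1 had fractional counts.

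Of 10 genes that couple or restrain angiotensin receptors, 9 reached 1 TPM in both libraries, against 62.3% of nuclear protein-coding genes. None (0) of the 9 with enough counts passed the rule on pool differences, against 3.15% of all genes with enough counts, and nothing is read from so few. The G protein subunits Gnai2, Gna11 and Gnaq stood at 330 and 344, 64.7 and 71.8, and 34.1 and 29.3 TPM. Agtrap, which binds the type 1 receptor and promotes its internalization, was at 16.4 and 19.3 TPM.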
